A study of Homo sapiens with 3 samples.

Results

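Accessible chromatin was described at 9 genes of the vascular endothelial growth factor (VEGF) system in hCMEC/D3. These immortalized human cells derive from the endothelium of small brain vessels. The genes were taken by symbol and comprised 3 receptors (KDR, FLT1 and FLT4), 2 co-receptors (NRP1 and NRP2) and 4 ligands (VEGFA, VEGFB, VEGFC and PGF), out of 20037 protein-coding genes examined. Accessibility came from ATAC-seq, in which the Tn5 transposase cuts and tags open DNA, so that tags pile up where chromatin is accessible. The series held 1 ATAC-seq library (replicate 2) and 2 RNA-seq libraries of the same line, grown to confluence on collagen without any treatment. The RNA tables list transcripts that no table used here links to genes, so transcript levels of these genes were not analysed here. With a single ATAC library there was no second group and no replicate. The values below therefore describe that library and carry no test and no error between replicates.

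VEGF ligands are secreted dimers that bind receptor tyrosine kinases on endothelial cells. KDR is the main signalling receptor for VEGF-A in blood vessels, FLT1 binds VEGF-A, VEGF-B and placental growth factor and can act as a decoy, and FLT4 is the receptor of VEGF-C best known from lymphatic vessels. The neuropilins NRP1 and NRP2 bind ligand together with the kinases and also serve as receptors for semaphorins. In the brain this system drives vessel growth and raises the permeability of the barrier.

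The authors' list held 106415 broad peaks, called from 22188172 tags. A gene was given every peak that overlapped it or the 10 kb on either side. A peak was placed at a gene end if it reached to within 1 kb of either end, inside if it overlapped the gene elsewhere, and in the flank otherwise. In all 93 peaks fell to the 9 genes, 11 of them at a gene end, 67 inside and 15 in a flank. All 9 genes had a peak at an end, where 72.8% of protein-coding genes had one, and all had some peak in the gene or its flanks, where 89.8% did. A peak inside and away from the ends was present in 7 of the 9, compared with 55.9% of protein-coding genes; KDR and VEGFB had none. Long genes more often hold such a peak. Among genes from 20% shorter to 25% longer, the share was 93.2% at the length of FLT1, 93.0% at NRP1, 91.6% at NRP2, 91.3% at VEGFC, 79.8% at FLT4 and 79.1% at KDR. It was 54.3% at the length of VEGFA, 50% at PGF and 12.5% at VEGFB. An inside peak was thus usual for most members' lengths, and its lack at KDR was the less common state. An end peak was found in 67.5% to 80.5% of genes of the members' lengths. Peaks at both ends were present in 2 of the 9, KDR and PGF, compared with 15.4%. An end peak was thus common to most genes. It was also common to markers of other cell types: it was present for 11 of 11 endothelial marker genes, such as CDH5 and PECAM1, but also for 3 of 3 blood markers, 4 of 4 mural markers, 2 of 3 epithelial markers and 3 of 4 neural and glial markers.

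The start sites of KDR, FLT1, NRP2, VEGFB, VEGFC and PGF could be placed with RefSeq promoter entries (GRCh38.p14), and each coincided with an end of the gene. FLT4, NRP1 and VEGFA had no entry. For all 6 genes a peak overlapped the 250 bases upstream of the start, which was so for 69.9% of protein-coding genes with an entry. In 5 of the 6 the peak spanned all 250 bases, and in NRP2 it spanned 237 of them. The upstream bases of 2 receptors, a co-receptor and a ligand are shown as examples of the 6. They are given 5′ to 3′ along the gene's strand, at chr4:55125596-55125845 (minus strand) for KDR, chr13:28495129-28495378 (minus) for FLT1, chr2:205682251-205682500 (plus) for NRP2 and chr4:176792923-176793172 (minus) for VEGFC. Capitals mark the letters GGAA (the core bound by ETS factors), GGGCGG (the GC box bound by SP and KLF factors) and TATAAA (the TATA box), on either strand.
KDR: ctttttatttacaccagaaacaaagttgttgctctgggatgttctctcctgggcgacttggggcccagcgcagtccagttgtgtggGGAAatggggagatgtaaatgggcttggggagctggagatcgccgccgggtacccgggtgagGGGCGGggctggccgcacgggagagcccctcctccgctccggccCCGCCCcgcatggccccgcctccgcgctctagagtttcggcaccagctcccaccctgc
FLT1: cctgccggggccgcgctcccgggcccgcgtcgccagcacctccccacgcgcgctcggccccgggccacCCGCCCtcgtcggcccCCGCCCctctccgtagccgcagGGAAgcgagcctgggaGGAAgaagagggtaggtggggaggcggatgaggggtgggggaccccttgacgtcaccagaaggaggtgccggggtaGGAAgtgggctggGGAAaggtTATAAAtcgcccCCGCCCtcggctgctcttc
NRP2: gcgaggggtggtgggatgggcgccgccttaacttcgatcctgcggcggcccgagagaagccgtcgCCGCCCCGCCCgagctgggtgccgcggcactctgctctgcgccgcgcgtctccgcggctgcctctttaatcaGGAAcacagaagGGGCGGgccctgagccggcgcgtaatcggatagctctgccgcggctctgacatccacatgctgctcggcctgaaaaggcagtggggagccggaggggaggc
VEGFC: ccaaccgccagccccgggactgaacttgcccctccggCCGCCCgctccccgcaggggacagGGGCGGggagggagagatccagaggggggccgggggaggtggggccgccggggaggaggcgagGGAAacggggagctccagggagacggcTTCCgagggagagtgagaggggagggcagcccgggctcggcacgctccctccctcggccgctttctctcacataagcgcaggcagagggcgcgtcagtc

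The FLT1 window held a TATA box, beginning 31 bases upstream of the start, together with 4 ETS cores and 3 GC boxes. The KDR window held no TATA box, 1 ETS core and 2 GC boxes, which begin 102 and 58 bases upstream. The NRP2 window held 1 ETS core and 3 GC boxes, of which a pair overlaps by a base. The VEGFC window held 2 ETS cores and 2 GC boxes. The core 99 bases upstream, read on the opposite strand, lay within the longer ETS motif CGGAAG. For the windows not printed, VEGFB held 6 GC boxes and 1 ETS core, and PGF 2 GC boxes and 3 ETS cores. Among 22199 promoter windows of protein-coding genes, the ETS core occurred in 92.5%, the GC box in 53.7%, the longer ETS motif in 20.2% and the TATA box in 9.0%. Among the 64.4% of windows that overlapped a peak, the shares were 92.4%, 69.0%, 27.3% and 5.06%. Of the 6 genes, 1 held the TATA box and all 6 the GC box. A further 5 motifs, also searched on both strands, occurred in none of the 6 windows. For AP-1 the letters were TGANTCA, present in 5.36% of all windows. For the hypoxia response core they were ACGTG, present in 20.2%. For GATA factors they were GATAA, present in 16.8%. For TEAD factors they were GGAATG, which contains the ETS core, present in 10.5%. For SOX factors they were ACAATG, present in 6.92%. Among windows that overlapped a peak, the shares were 4.23% for AP-1, 23.0% for the hypoxia response core and 11.3% for GATA. They were 9.2% for TEAD and 4.65% for SOX. These matches describe letters in the window only. The windows were rich in G and C, from 65.2% in KDR and 70.0% in NRP2 to 82.8% in VEGFB, a value reached by 1.64% of all windows. The median was 62.0% over all windows and 66.0% over those with a peak.

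**Figure D1:**
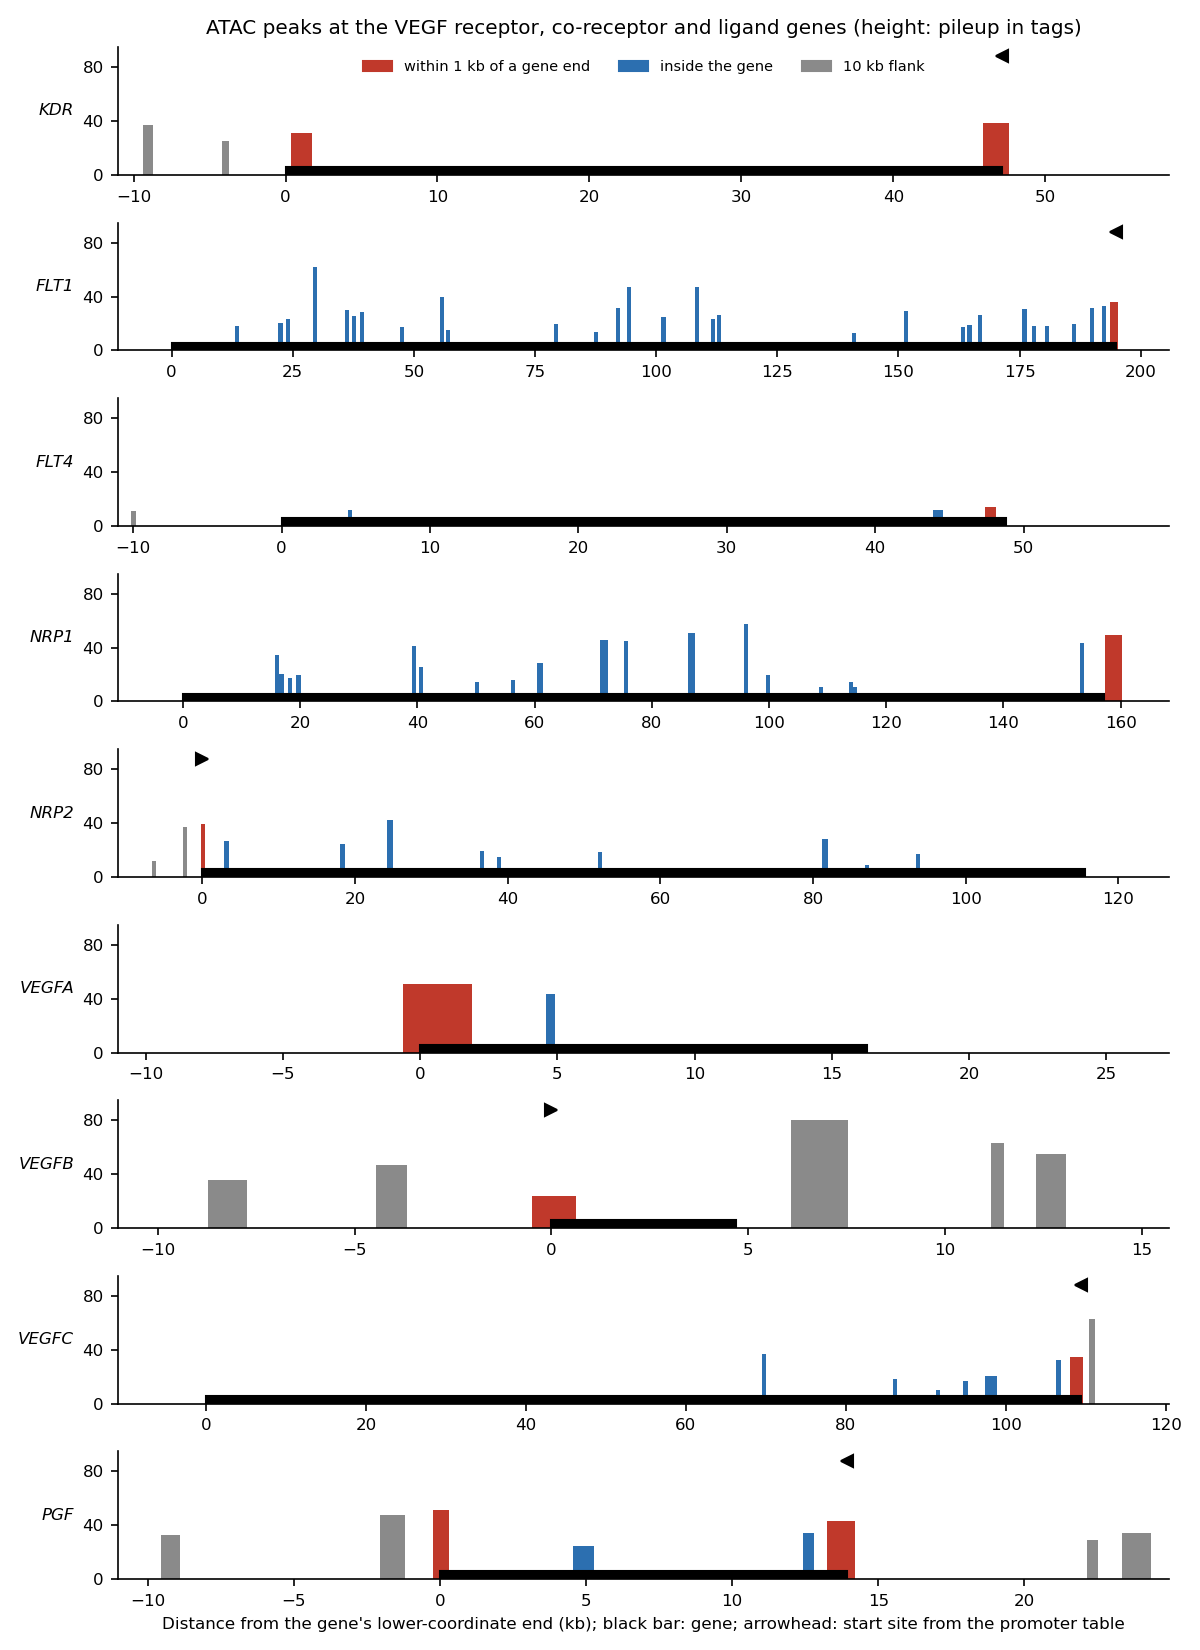
ATAC peaks at the 9 genes, with distance from the gene's lower-coordinate end in kb on the x axis and pileup in tags on the y axis. Red bars are peaks at a gene end, blue bars peaks inside and grey bars peaks in the 10 kb flanks (narrow peaks are widened to stay visible); FLT1 carried 30 peaks, whereas KDR carried 4, with none between its end peaks.

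KDR, the main signalling receptor, had peaks at both ends and nothing between them. The peak over the start site, chr4:55124349-55126081, was 1733 bp long, and 1.46% of all peaks in the list were as long or longer. Its pileup, the level of stacked tags that the caller gave for the peak as a whole, was 38.6 tags. Its fold over the local background, as the authors' caller gave it, was 4.23. The peak at the other end, chr4:55078845-55080246, was 1402 bp long, with 31.3 tags at 4.79-fold. The 44.1 kb between them, 93.6% of the gene, held no peak. Beyond that far end lay a pair of flank peaks, the higher of which, chr4:55069112-55069787, had 36.8 tags at 7.71-fold, the highest fold of the 4.

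Genes of similar length, with the same limits on length, served as the yardstick, since long genes collect more peaks. Among the 2227 such genes for KDR the median was 4 peaks, the number KDR had. No inside peak was found in 20.9% of them, and peaks at both ends with none inside in 1.8%; this combination was looked up after the KDR values had been seen.

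FLT1, the high-affinity receptor, was the most densely marked of the receptors. It had 30 peaks, 29 of them inside and 1 at the start site, and none in the flanks. Among 870 genes of similar length the median was 9 peaks, and 2.30% had 30 or more. Its peaks covered 15516 bp, compared with a median of 5059 bp. Pileups ran from 12.8 to 62.3 tags with a median of 25.2, and 4 of the 30 peaks lay above the upper quartile of the whole list, 35.99 tags. FLT1 therefore stood out by the number of its peaks more than by their height.

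The highest FLT1 peak, chr13:28329469-28330336, was 868 bp long, with 62.3 tags at 7.67-fold. It lay 165226 bp downstream of the start site, near the far end of the gene. The second, chr13:28408274-28409101, had 47.4 tags at 5.66-fold and lay 86441 bp downstream. The peak over the start site, chr13:28493969-28495654, was 1686 bp long, with a lower pileup of 35.9 tags at 2.96-fold. The inside peaks were spread along the gene, 15 nearer the start and 14 nearer the far end, and no stretch longer than 27.4 kb was without a peak. Among genes of similar length, 94.1% had a longest peak-free stretch at least as long. One inside peak, chr13:28313608-28313943, also lay at an end of the noncoding RNA gene LOC124903141.

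FLT4, the receptor of VEGF-C, had 4 peaks, and all were low. Their pileups were 10.8, 11.9, 11.9 and 14.0 tags, where the lowest pileup called anywhere was 8.0 tags and the lower quartile of all peaks was 14.09 tags. The highest, chr5:180648942-180649633, was placed at a gene end because it reached to 665 bp from it, with a fold of 3.39. It did not overlap the end itself. The inside peaks were chr5:180606005-180606244, with a fold of 3.84, and chr5:180645419-180646063, with a fold of 2.89. The flank peak, chr5:180591373-180591690, lay 9816 bp away, just within the 10 kb limit, at an end of SCGB3A1. FLT4 matched genes of similar length in its number of peaks, with a median of 4 among 2227 genes, but 92.5% of those genes had a highest pileup at least as high as its 14.0 tags. None of its 4 peaks reached a −log10 q of 5.

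The receptors KDR and FLT4 were thus alike in length (47.12 and 48.79 kb) and in number of peaks (4 each). They were unlike in pileup, from 24.8 to 38.6 tags at KDR and from 10.8 to 14.0 tags at FLT4. KDR itself was not high for its length. Among genes of similar length the median highest pileup was 51.2 tags, and 70.8% reached that of KDR. The difference between KDR and FLT4 is one between single peaks of 1 library and has no replicate check.

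**Figure D2:**
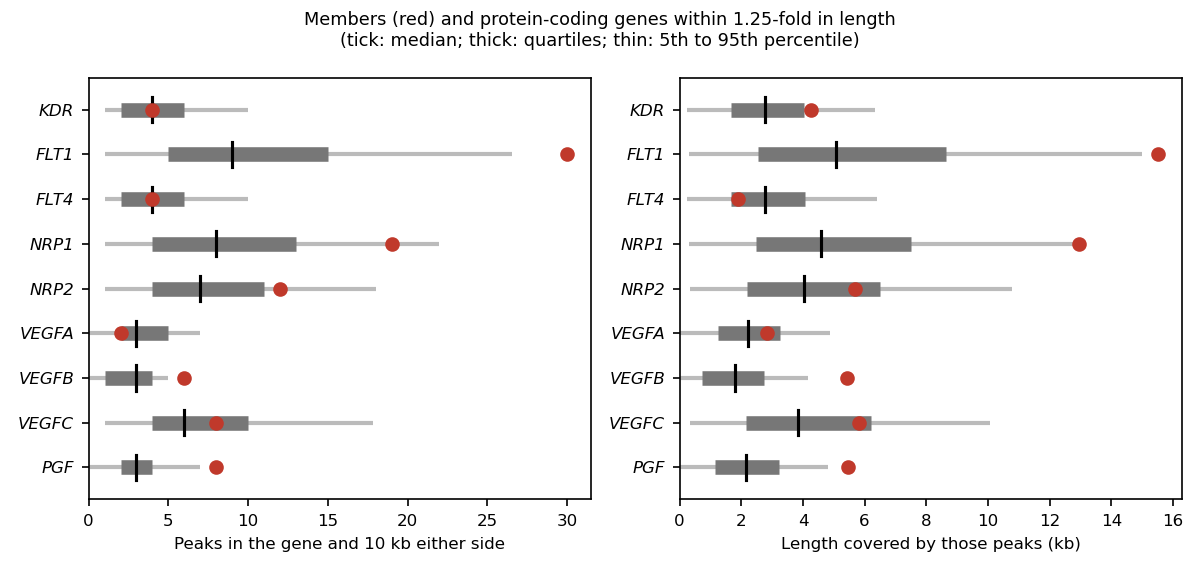
Number of peaks (left) and bp covered by them (right) for each member (red point) and for protein-coding genes from 20% shorter to 25% longer (black tick, median; thick bar, quartiles; thin bar, 5th to 95th percentile). FLT1, VEGFB and PGF lie beyond the thin bar in both panels, with 30, 6 and 8 peaks.

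The co-receptor NRP1 had 19 peaks, 18 inside and 1 at an end. Among 1122 genes of similar length the median was 8 peaks, and 9.98% had 19 or more. Its end peak, chr10:33334827-33337717, was 2891 bp long, and only 0.0244% of all peaks were as long. Among genes of similar length, 0.446% had a peak as wide in the gene or its flanks. The peak began 160 bp outside the higher-coordinate end, with 49.7 tags at 2.59-fold. Inside the gene, the highest peaks were chr10:33273207-33273969, with 57.9 tags at 7.22-fold, and chr10:33263646-33264842, with 51.0 tags at 5.35-fold. They belonged to a run of high peaks in the middle of the gene, and 7 of the 19 peaks lay above the upper quartile of the list. A peak-free stretch of 38.3 kb separated the rest from the inside peak nearest the marked end, 3563 bp from it.

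NRP2, the second neuropilin, had 12 peaks, 9 inside, 2 in the flank upstream and 1 over the start site. Among 1445 genes of similar length the median was 7 and 21.9% had 12 or more. The start-site peak, chr2:205682264-205682904, was only 641 bp long, with 39.3 tags at 4.32-fold. The highest peak inside, chr2:205706727-205707428, lay 24576 bp downstream of the start, with 42.1 tags at 7.93-fold. The next, chr2:205763665-205764498, had 28.6 tags at 6.92-fold. The higher flank peak, chr2:205680003-205680371, lay 2130 bp upstream of the gene, with 37.0 tags at 5.28-fold. The neuropilins differed most in the width of the peak at the marked end, 2891 bp at NRP1 and 641 bp at NRP2, while their highest pileups were 57.9 and 42.1 tags.

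Among the ligands, VEGFA, the principal driver of vessel growth, had 2 peaks. The first, chr6:43769580-43772090, was 2511 bp long and spanned an end of the gene, with 50.7 tags at 2.94-fold. In the whole list 0.0977% of peaks were as long, and 0.589% of 2206 genes of similar length had a peak as wide. The second, chr6:43774789-43775110, was 322 bp long and inside the gene, with 43.5 tags at 2.88-fold. No other peak was called in the gene or within 10 kb. Both VEGFA peaks were above the upper quartile of pileup, and 91.0% and 92.2% of all peaks had an equal or higher fold. With flanks counted, VEGFA was the only member with fewer peaks than the median gene of similar length, 2 compared with 3. Over the gene alone it still had 2 peaks, and 49.7% of genes of similar length had as many or more.

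VEGFB, a ligand of FLT1, had 6 peaks around a gene of 4.681 kb, in a gene-dense stretch. The start-site peak, chr11:64234088-64235197, had 23.8 tags at 2.59-fold, and it also lay at an end of the neighbouring gene DNAJC4. The other 5 peaks lay in the flanks, each at an end of another gene. The highest of these and of all 93 peaks, chr11:64240668-64242120, had 80.2 tags at 3.91-fold and lay at an end of FKBP2. Among 1241 genes of similar length 4.59% had 6 or more peaks. Counted over the gene alone, VEGFB had 1 peak, and 68% of those genes had as many or more. All 6 peaks had a fold under 4, the highest being 3.91, so none passed a 4-fold limit.

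VEGFC, the ligand of FLT4, had 8 peaks, and those in the gene lay towards its start. The peak over the start, chr4:176791622-176793174, was 1553 bp long, with 34.4 tags at 2.55-fold. A higher one, chr4:176793953-176794718, with 62.7 tags at 4.60-fold, lay 1031 bp upstream of the start, just beyond the 1 kb limit for an end peak. All 6 inside peaks were in the first 36.3% of the gene, and the remaining 69.5 kb held none. The comparison set was 387 genes of similar length with a known start and 6 or more inside peaks, a minimum taken from VEGFC itself. In 1.03% of them all inside peaks were nearer the start than the far end. This pattern was looked up after the VEGFC values had been seen, so the share is description only. The inside peak farthest from the start, chr4:176752992-176753527, had the highest fold of the 93 peaks, 10.2, with a pileup of 36.6 tags; 0.507% of all peaks had a fold as high. The second inside peak by pileup, chr4:176790029-176790267, had 32.6 tags at 2.39-fold.

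PGF, which encodes placental growth factor, had 8 peaks around a gene of 13.94 kb, 2 at the ends, 2 inside and 4 in the flanks. Among 2178 genes of similar length the median was 3 peaks, and 2.48% had 8 or more. The start-site peak, chr14:74955075-74956021, had 43.4 tags at 4.69-fold. The peak at the far end, chr14:74941583-74942136, was higher, with 51.0 tags at 4.40-fold, and lay also at an end of the noncoding RNA gene LOC107984690. The inside peaks had 24.5 and 34.2 tags. The highest flank peak, chr14:74939794-74940627, had 47.4 tags at 4.69-fold and lay 1203 bp beyond the far end. All 8 peaks had pileups of 24.5 tags or more, and apart from the far-end peak none lay at an end of another gene.

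**Figure D3:**
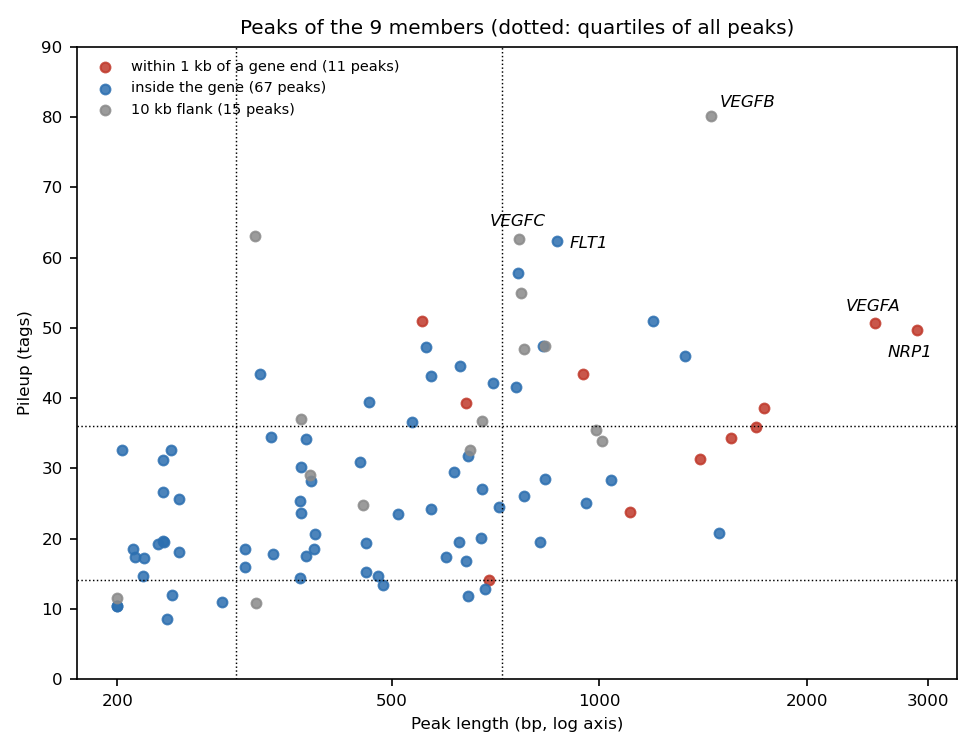
Length (bp, log axis) and pileup (tags) of the 93 peaks, coloured by position, with dotted lines at the quartiles of all 106415 peaks. The end peaks of NRP1 and VEGFA are the longest, at 2891 and 2511 bp, and the highest pileup, 80.2 tags, belongs to a flank peak of VEGFB.

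Grouped by role, the totals of the receptors and of the ligands drew heavily on single genes. Peaks per 10 kb, flanks included, came to 1.08 for the receptors, 0.991 for the co-receptors and 1.07 for the ligands. The value for all protein-coding genes was 0.555, taken from their summed peaks and summed span and so not matched for length. Within roles the density ran from 0.581 at FLT4 and 0.596 at KDR to 1.40 at FLT1, and from 0.551 at VEGFA to 2.43 at VEGFB. Inside peaks made up 31 of 38 at the receptors, but 29 of these 31 were at FLT1, whereas KDR had 0 of its 4 peaks inside and FLT4 2 of 4. At the ligands they made up 9 of 24, of which VEGFC had 6 of its 8 peaks, PGF 2 of 8, VEGFA 1 of 2 and VEGFB 0 of 6. At the co-receptors they made up 27 of 31, with 18 of 19 at NRP1 and 9 of 12 at NRP2. Position thus varied within the receptors and within the ligands, and no difference between roles is drawn from these totals. Peaks at an end of another gene numbered 9 in all, 6 of them at VEGFB and 1 each at FLT1, FLT4 and PGF. In number of peaks, 6 of the 9 members exceeded the median of genes of similar length, 2 equalled it (KDR and FLT4) and VEGFA was below it. In bp covered, 8 exceeded the median and FLT4 was below it.

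End peaks were longer than the others. Their median length was 1402 bp, compared with 459 bp for the peaks inside and 944 bp for end peaks of all protein-coding genes. At least 1000 bp was reached by 7 of the 11 end peaks and by 4 of the 67 inside. Their median pileup was 38.6 tags, near the 40.1 tags of all such end peaks, and the highest end pileup of a member exceeded the median of all genes that had one, 45.7 tags, at PGF, VEGFA and NRP1.

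The fold of these end peaks was low, with a median of 3.39 compared with 4.71 over all end peaks of protein-coding genes. A fold under 4 was found for 6 of the 11, compared with 33.5% of all such peaks. The fold divides the pileup by a local background estimated from the same library within 10000 bp, and this background, recovered from pileup and fold, had a median of 8.57 tags at the members' end peaks and 7.24 tags at all end peaks. It was highest beside the widest peaks, 18.6 tags at NRP1 and 16.6 tags at VEGFA, and lowest at FLT4, 3.43 tags. Fold and pileup ordered the members differently. By fold, the end peaks of KDR, NRP2 and PGF came first, at 4.23 to 4.79, and those of NRP1, VEGFB and VEGFC last, at 2.55 to 2.59.

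**Figure D4:**
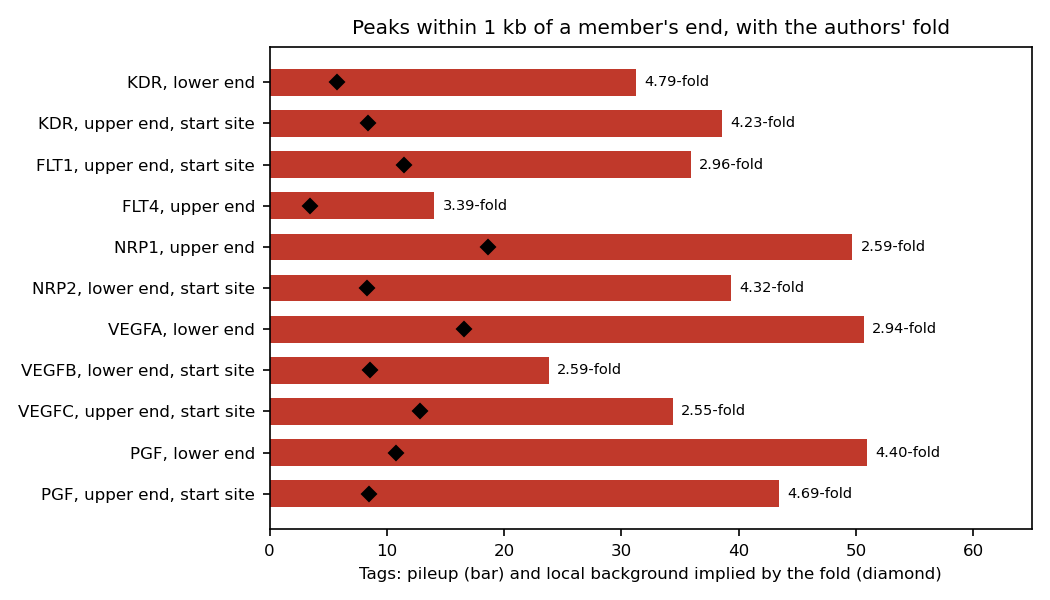
Pileup (bar) and the local background implied by the fold (diamond), both in tags, for the 11 end peaks, with the authors' fold beside each bar; lower and upper refer to coordinates. NRP1 and VEGFA combine high pileups (49.7 and 50.7 tags) with the highest backgrounds (18.6 and 16.6 tags), and FLT4 has the lowest of both.

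Relatives of the VEGF genes were measured in the same way: the PDGF ligands, their receptors PDGFRA and PDGFRB, and the related kinases KIT, FLT3 and CSF1R, which bind other ligands. All 9 genes of that list had an end peak, and its median highest end pileup was 27.1 tags, compared with 38.6 tags for the VEGF genes. The highest was 72.1 tags at PDGFC, followed by 40.2 at PDGFD, 38.5 at PDGFRB, 31.6 at PDGFB, 27.1 at PDGFA and 24.6 at FLT3. It was 21.4 tags at KIT, 19.5 at PDGFRA and 18.0 at CSF1R. KIT and PDGFRA, which lie near KDR on chromosome 4, thus had end pileups below the 38.6 tags of KDR. PDGFRB was close to KDR, and PDGFD and PDGFC were above it. The angiopoietin and TIE genes, the other main ligand and receptor pair of endothelium, had an end peak in 4 of 5. Their values were 33.2 tags at ANGPT2, 31.4 at TIE1, 30.2 at TEK and 13.0 at ANGPT1, all also below KDR, and ANGPT4 had none. TEK had 17 peaks in all, TIE1 5, ANGPT2 11, ANGPT1 5 and ANGPT4 2.

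**Figure D5:**
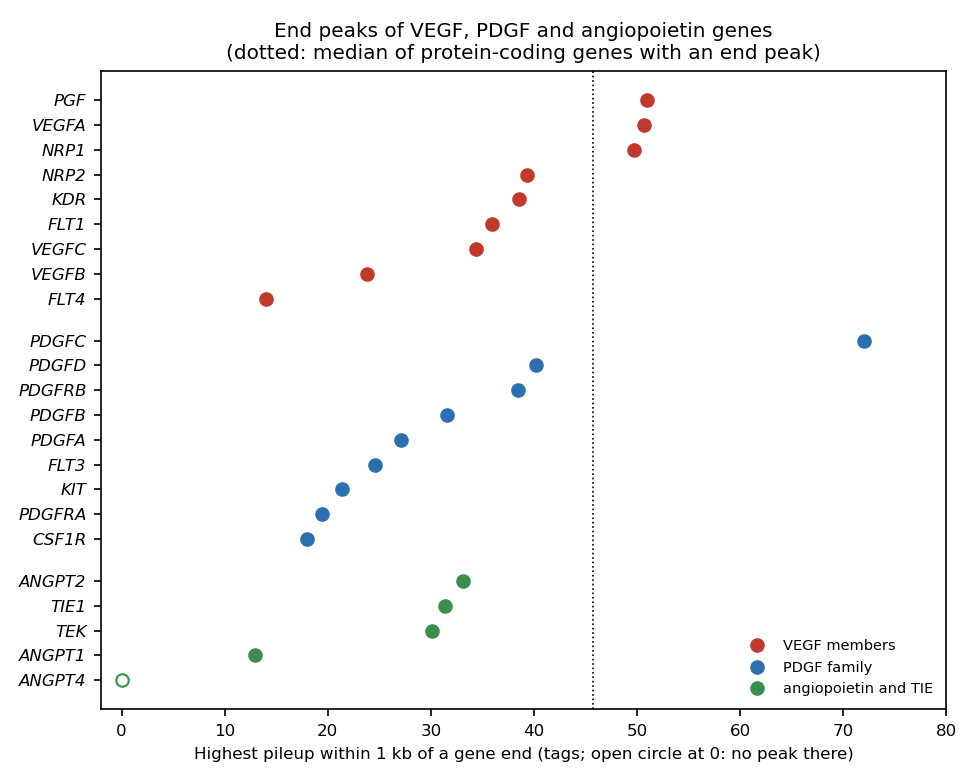
Highest pileup of a peak within 1 kb of a gene end (tags) for the VEGF genes, the PDGF family and the angiopoietin and TIE genes, with the dotted line at 45.7 tags, the median of all protein-coding genes that have such a peak. PDGFC, PGF, VEGFA and NRP1 lie above the line, and the open circle marks ANGPT4, which has no end peak.

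Among the other genes of the VEGF pathway, mostly signalling genes downstream of the receptors but also the ligand VEGFD and CCBE1, a secreted factor in VEGF-C processing, 42 of 44 had an end peak (95.5%, compared with 72.8% of protein-coding genes), and all 44 had a peak in the gene or its flanks. Those without an end peak were PRKCB, a protein kinase C gene with 4 peaks inside, and VEGFD, a further VEGF ligand, with 1 peak inside and 1 in the flank. The highest end pileups were 83.7 tags at GIPC1, an adaptor that binds neuropilin, 70.3 at PIK3R1, a regulatory subunit of phosphoinositide kinase, and 66.4 at PPP3CA, a calcineurin subunit. The median over the list was 45.0 tags, beside 45.7 tags for all genes that had one and 38.6 tags for the VEGF genes.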

How the data were processed

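The analysis used the ATAC-seq library of hCMEC/D3, replicate 2. Per the file headers, the authors called broad peaks with MACS 2.2.7.1 and no control. Each tag was moved by -100 bp and lengthened to 200 bp, in single-end mode. The limits on q were 0.05 for strong and 0.1 for broad regions. Of 31532245 tags, 22188172 remained after keeping 1 per position. The effective genome size was 1870000000 bp, which sets the floor of the local background at 2.37 tags. Of the members' peaks, 15 lay within 0.02 tags of this floor, so their fold and q depend on that genome size. Among them were the FLT4 flank peak and its inside peak at chr5:180606005-180606244. The deposited values are the pileup signal, the fold ratio over local background, and p and q as −log10 values (the −log10 p-value was not used). Only 1.14% of the pileups were whole numbers, as a count of tags stacked at 1 position would be. The pileup was thus not the maximum over the peak. How it was summarised over the peak is not given further in the sources used here. The submitters' processing notes name Bowtie2, SAMtools 1.13, and the builds GRCh38 and mm10, without roles.

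Genes came from a RefSeq table (GRCh38.p14), which has no exons. Peaks overlapped 51.9% of 35116 promoter entries at their own position and 4.61% to 5.99% of them after shifts of 2000 to 50000 bp, so GRCh38 was used. A peak counted with an overlap of 1 bp. The local background was taken as (pileup + 1) / fold - 1, whose lowest value equals the floor. Placement was tested on simulated data with planted peaks, and all 200 genes were recovered. End peaks were planted only at lower-coordinate ends and flank peaks only beyond upper ends, so placement at upper ends was not tried. Members and lists were chosen with earlier results of these data known. All 9 members are named, with their end peaks, the 2 highest inside and the 1 highest in a flank; of the signalling genes, those without an end peak and the 3 highest. Python 3.11.15, pandas 2.3.3 and matplotlib 3.10.9 were used. The unlinked RNA tables were not used.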

Additional observations from a re-analysis of the deposited data

How the results depend on the processing

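No paired analysis was possible because the ATAC data are 1 library. Keeping peaks of at least 4-fold lowered the members' peaks from 93 to 44 and the members with an end peak from 9 to 3 (KDR, NRP2 and PGF), where 56.0% of protein-coding genes kept one. Keeping the same number of peaks by pileup instead, an alternative chosen after seeing the data, left 75 peaks. Both filters kept 66460 of the 106415 peaks in the list. With the pileup filter, end peaks remained at 8 members, without FLT4, and at 65.6% of protein-coding genes. With flanks of 50 kb the peaks came to 142. A −log10 q of at least 5 kept 76038 peaks of the list and 66 of the members' peaks. End peaks then remained at 7 members, without FLT4 and VEGFB, and at 66.7% of protein-coding genes. An end window of 500 bp left 8 members with an end peak, without FLT4, beside 69.2% of protein-coding genes. The number of members above the median of genes of similar length was 4 at 4-fold, 7 with the pileup filter and 6 in the other settings run. They were not always the same genes. Without flanks VEGFA was among them and VEGFB was not. At the −log10 q limit of 5 and with flanks of 50 kb, KDR was among them and VEGFC was not. Over the settings run, the share of genes of similar length with as many peaks stayed between 1.15% and 5.63% for FLT1 and between 0.459% and 4.73% for PGF, and ran from 8.2% to 29.5% for NRP1, 12.2% to 44.8% for NRP2, 32.5% to 73.7% for VEGFC and 37.0% to 75.2% for KDR. It ran from 3.3% to 100% for VEGFB, which had 0 peaks at 4-fold and a share of 68% without flanks, from 49.7% to 100% for VEGFA and from 55.9% to 100% for FLT4. VEGFA and FLT4 also had 0 peaks at 4-fold. The lowest pileup called was 8.0 tags, and at this depth and with these calling settings weaker accessibility could not be seen.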

Other observations

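Peaks beyond the 10 kb flanks were counted to 50 and 100 kb on either side, the latter chosen after seeing the data. VEGFA, with 2 peaks in the gene and 10 kb around it, had 9 within 50 kb and 18 within 100 kb. Of the 16 outside the gene, 11 lay below its lower-coordinate end and 5 above its upper end, in a span with 2 other protein-coding genes. Its highest outside peak within 50 kb, chr6:43798841-43799267, lay 12.4 kb away, with 34.2 tags at 8.93-fold, compared with folds of 2.94 and 2.88 for the peaks at the gene. Within 100 kb the highest, chr6:43706721-43707142, lay 63.1 kb away, with 46.5 tags at 4.67-fold.

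KDR had 4, 10 and 15 peaks at the same distances, in a span without another protein-coding gene. The highest outside it, chr4:55183973-55184626, lay 58.4 kb upstream of the start site, with 43.4 tags at 6.92-fold, above the 38.6 tags and 4.23-fold of the start-site peak. For FLT1 the highest outside peak, chr13:28574590-28575167, lay 79.5 kb upstream of the start site with 64.6 tags at 10.5-fold. For NRP1 it was chr10:33365487-33366466, 30.8 kb beyond the end with the wide peak, with 63.9 tags at 7.32-fold. FLT4 differed from these genes, with 4 peaks within 10 kb and 5 within 100 kb, none of them above 14.0 tags in the gene or 10.8 tags outside it. Few added peaks were not particular to FLT4. From 10 to 100 kb NRP2 went from 12 to 15 peaks and VEGFC from 8 to 12. In both, as at FLT4, the highest outside peak lay within 10 kb. No target gene was assigned to any of these peaks.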
